A study of Homo sapiens with 84 samples.

Results

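Type II cadherins are calcium-dependent adhesion molecules at the cell surface, and 10 of them were followed here in the open chromatin of triple-negative breast cancer cell lines: CDH6, CDH7, CDH8, CDH9, CDH10, CDH11, CDH12, CDH18, CDH19 and CDH20. The family was chosen by the rise of CDH20 accessibility with combined drug treatment over DMSO. For each gene, read counts were summed over the ATAC-seq peaks assigned to it by the authors with a distance of at most 10 kb from the transcription start site (TSS). The 10 genes are among 24455 with such peaks and hold 61 of them within 10 kb, and 2010 of the 861439 deposited peaks at any distance. Because the choice rested on the combination against DMSO, CDH20's values in that comparison are a description and are not tested.

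ATAC-seq uses the Tn5 transposase to cut and tag open DNA, so more counts over a peak mean that the site was cut more often. The groups set each of 2 drugs, and the pair, against their solvent. Tazemetostat blocks EZH2, the enzyme at the core of the Polycomb complex PRC2, and ipatasertib blocks the AKT kinases. MDA-MB-468, SUM-149PT, MDA-MB-231 and SUM-159PT each had 4 groups: both agents together (the combination), tazemetostat alone, ipatasertib alone, and the solvent DMSO. The remaining 5 lines (HCC1143, HCC1395, HCC1937, BT-20 and BT-549) had the combination and DMSO. Both drugs were given at 5 uM. In the schedule that the labels give for MDA-MB-468, tazemetostat was added on day -5 and ipatasertib on day 0, and cells in 2% serum were collected 24 hours later. A comparison of the single agents is therefore also a comparison of a long with a short exposure. All groups are established lines grown alone, and each has 3 libraries.

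Type II cadherins bind mostly to their own kind or to close relatives on neighbouring cells, and their tails hold catenins that tie the contact to actin. Most are best known from the developing nervous system, where different neurons carry different sets of them. PRC2 methylates histone H3 at lysine 27 and keeps many genes of neural and other developmental programmes silent in epithelial cells.

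The 78 libraries held 12292571 to 21459284 counts in peaks. Differences between libraries of a group were below sampling noise in 76 of 78 pairs, and both other pairs involve the third DMSO library of HCC1395. No label says that the 3 libraries came from separate cultures, so each group was counted as 1 sample, the sum of its libraries, and lines are the replicates. Summed accessibility of 5 epithelial marker genes ran from 45.2 to 217 CPM (counts scaled to library size) in combination groups and from 34.6 to 225 CPM in DMSO groups, lowest in BT-549 in each case. That of 5 mesenchymal markers ran from 89.3 to 220 CPM with the combination and from 75.4 to 240 CPM in DMSO, lowest in MDA-MB-468. No marker gene with a peak in the window was at 0 in any group. That includes the 3 of 5 immune markers with peaks (summed 44.1 to 86.6 CPM with the combination, 49.3 to 85.6 CPM in DMSO), the 5 endothelial ones (28.6 to 63.0 CPM with the combination, 33.7 to 66.2 CPM in DMSO) and 4 of 5 of Schwann cells and melanocytes (60.7 to 87.2 CPM with the combination, 58.6 to 84.4 CPM in DMSO). In bulk libraries, a higher value from more cells with an open site and one from wider opening per cell cannot be told apart.

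CDH6, CDH9, CDH10, CDH12 and CDH18 are on chromosome 5, CDH8 and CDH11 on chromosome 16, and CDH7, CDH19 and CDH20 on chromosome 18. The nearest protein-coding genes of CDH20 in the RefSeq table are MC4R, a melanocortin receptor gene 960655 bp to the left, and RNF152, 252288 bp to the right. RefSeq promoter windows (GRCh38.p14, from 250 bases before to 50 after a start) were found for 8 of the 10 genes, 14 windows in all, with no entry for CDH6 or CDH11. The windows of CDH20, CDH12 and CDH10, the genes with the largest differences between the single agents that have an entry, and the most CG-rich window of the family, at CDH7, are shown 5′ to 3′ on the gene's strand, with CG dinucleotides in capitals.
CDH20 chr18:61333180-61333479, plus strand: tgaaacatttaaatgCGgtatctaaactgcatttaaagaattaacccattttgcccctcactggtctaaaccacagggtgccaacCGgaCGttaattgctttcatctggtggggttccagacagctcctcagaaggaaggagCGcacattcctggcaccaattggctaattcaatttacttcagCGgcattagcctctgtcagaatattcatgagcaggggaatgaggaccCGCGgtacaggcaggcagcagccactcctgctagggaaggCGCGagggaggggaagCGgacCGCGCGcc
CDH12 chr5:22853295-22853594, minus strand: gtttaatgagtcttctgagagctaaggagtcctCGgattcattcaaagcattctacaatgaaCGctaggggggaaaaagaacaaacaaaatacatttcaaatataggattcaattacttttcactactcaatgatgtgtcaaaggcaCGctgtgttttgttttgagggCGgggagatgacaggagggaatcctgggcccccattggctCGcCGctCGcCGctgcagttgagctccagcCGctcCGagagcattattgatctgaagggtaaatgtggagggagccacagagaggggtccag
CDH10 chr5:24644929-24645228, minus strand: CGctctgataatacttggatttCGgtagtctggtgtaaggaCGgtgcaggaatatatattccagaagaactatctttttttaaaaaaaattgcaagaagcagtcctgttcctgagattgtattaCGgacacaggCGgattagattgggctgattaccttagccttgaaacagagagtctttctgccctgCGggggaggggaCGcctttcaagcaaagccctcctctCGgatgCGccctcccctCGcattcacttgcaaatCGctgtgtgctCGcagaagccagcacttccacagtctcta
CDH7 chr18:65750762-65751061, plus strand: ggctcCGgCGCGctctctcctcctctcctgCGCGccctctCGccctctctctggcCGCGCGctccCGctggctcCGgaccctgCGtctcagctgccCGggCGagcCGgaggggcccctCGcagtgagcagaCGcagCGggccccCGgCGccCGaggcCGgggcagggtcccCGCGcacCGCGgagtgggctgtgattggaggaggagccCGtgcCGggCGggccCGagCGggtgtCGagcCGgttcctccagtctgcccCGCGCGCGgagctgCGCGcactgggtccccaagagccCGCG

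The CDH20 window holds 13 CG dinucleotides, against a median of 14 over the 35116 windows of the table, and 49.7% of windows hold as many or fewer. The CDH12 window holds 10 and the CDH10 window 12. The CDH7 window holds 41, and 94.2% of all windows hold as many or fewer. No deposited peak overlaps the CDH20 window. The nearest peak (hg38, chr18:61333664-61334719) starts 234 bp downstream of the TSS, and a wider one (chr18:61334944-61336697) starts 1514 bp downstream. The motif TGTTTAC, the core bound by forkhead factors, was in none of the 14 windows on either strand and in 3.42% of all windows.

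CDH20, a type II cadherin of the developing nervous system, was more accessible in every line given tazemetostat, alone or with ipatasertib, than in the same line without it. In MDA-MB-468, the 3 libraries of each group held 5.06, 4.72 and 4.64 CPM with the combination, 4.47, 5.58 and 5.70 CPM with tazemetostat, 0.874, 0.964 and 1.17 CPM with ipatasertib, and 0.814, 0.599 and 0.746 CPM in DMSO. SUM-149PT had 2.93, 3.01 and 2.65 CPM with the combination, 2.96, 3.33 and 2.44 CPM with tazemetostat, 1.36, 1.10 and 1.20 CPM with ipatasertib, and 1.42, 1.25 and 2.03 CPM in DMSO. In these lines all 6 libraries with tazemetostat lay above all 6 without it. MDA-MB-231 had 2.95, 1.97 and 2.63 CPM with the combination, 2.88, 2.31 and 1.97 CPM with tazemetostat, 1.07, 1.19 and 0.930 CPM with ipatasertib, and 1.34, 1.05 and 1.21 CPM in DMSO. SUM-159PT had 6.30, 4.95 and 4.49 CPM with the combination, 5.43, 4.25 and 4.04 CPM with tazemetostat, 1.71, 1.29 and 2.71 CPM with ipatasertib, and 2.05, 1.77 and 1.88 CPM in DMSO. The same separation held in MDA-MB-231 and SUM-159PT.

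Of the 5 lines without single agents, all but BT-549 had a lower CDH20 level with the combination than the 4 lines above. BT-549 had 3.92, 3.41 and 3.11 CPM of CDH20 with the combination, against 1.37, 1.51 and 1.63 CPM in DMSO. BT-20 had 1.60, 1.89 and 1.51 CPM with the combination, against 0.687, 0.434 and 1.31 CPM in DMSO. HCC1395 had 1.39, 1.76 and 1.56 CPM with the combination, against 0.503, 0.780 and 0.353 CPM in DMSO. In these lines, too, no DMSO library reached a combination library. HCC1143 had 0.975, 1.80 and 1.02 CPM with the combination, against 0.706, 0.551 and 0.783 CPM in DMSO. HCC1937 had 0.937, 0.678 and 1.16 CPM with the combination, against 0.519, 0.259 and 0.618 CPM in DMSO. These values rest on few reads, 5 to 108 counts per library, and HCC1937 in DMSO had the lowest count.

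**Figure D1:**
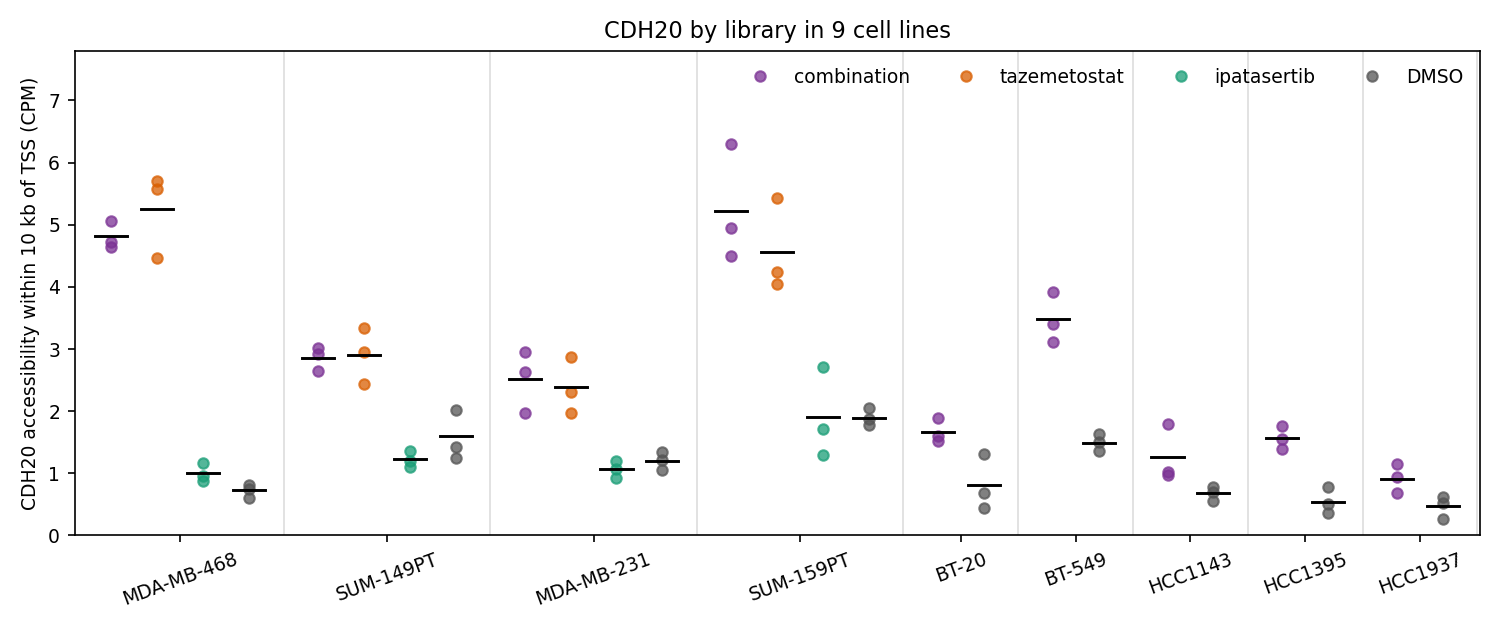
Accessibility of CDH20 within 10 kb of its TSS (CPM on TMM-scaled library sizes, linear axis from 0) in each library of 9 lines. Points are libraries, coloured by treatment, and bars are the value of the 3 libraries summed; in each of the 4 lines with single agents, the combination and tazemetostat points lie above the ipatasertib and DMSO points.

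The tested comparison for CDH20 is tazemetostat against ipatasertib in 4 lines, a contrast of neither combination nor DMSO libraries, although both enter the estimate of its spread. The choice was made with results of all libraries known, so this is not independent support for it. CDH20 rose with tazemetostat by a log2 fold of 1.53 ± 0.28 (SE over 4 lines; adjusted p = 0.00328, edgeR quasi-likelihood test with line as block, Benjamini-Hochberg over 23905 genes). It was higher in 4 of 4 lines, by a ratio of 5.25 in MDA-MB-468 and of 2.25 to 2.38 in the other lines, and in each line the tazemetostat libraries lay above the ipatasertib libraries without overlap. Over all genes and the 4 lines, 24.9% of gene and line pairs did so, and 31.5% lay below. Without MDA-MB-468 the log2 fold was 1.23 (adjusted p = 0.00819, edgeR). The call was lost when the 2 groups were fitted alone, without the combination and DMSO sums (1.52, adjusted p = 0.0899, edgeR). In that fit 1 gene of the whole table passed.

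CDH12, CDH6, CDH10 and CDH9 rose as well, so that 5 of 10 members rose and none fell in this comparison. Of all 23905 genes tested, 13.4% rose and 24.2% fell, so that 35.7% of calls were higher; scaled by total counts it was 22.7%, with a median log2 fold of all genes of -0.11, and 4 members rose. All 10 members had a positive fold, with a median log2 fold of 0.65 against -0.02 over all genes tested. These counts and the median include CDH20, which chose the family. They describe the members and were not tested as a set.

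CDH12, a cadherin of the brain, had 7.003 CPM with tazemetostat and 1.31 CPM with ipatasertib in MDA-MB-468. In SUM-149PT it had 1.31 CPM with tazemetostat and 0.542 CPM with ipatasertib, and in SUM-159PT 19.6 CPM with tazemetostat and 12 CPM with ipatasertib. MDA-MB-231 went the other way, with 0.358 CPM with tazemetostat and 0.418 CPM with ipatasertib from 16 and 20 counts, and its libraries overlapped. In DMSO, CDH12 had 1.27 CPM in MDA-MB-468, 0.900 CPM in SUM-149PT, 10.9 CPM in SUM-159PT and 0.697 CPM in MDA-MB-231. The DMSO level lay between those of the single agents in SUM-149PT and above both in MDA-MB-231. The fitted log2 fold for tazemetostat against ipatasertib was 1.20 ± 0.40 (adjusted p = 0.0359, edgeR).

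CDH6, or K-cadherin, is known from kidney tubules and neural crest and from ovarian and renal cancers. It had 9.50 CPM with tazemetostat and 1.86 CPM with ipatasertib in MDA-MB-468, 4.69 CPM with tazemetostat and 2.01 CPM with ipatasertib in SUM-149PT, and 4.42 CPM with tazemetostat and 2.49 CPM with ipatasertib in MDA-MB-231. In SUM-159PT, where its level was highest, it had 26.6 CPM with tazemetostat and 24.5 CPM with ipatasertib, with libraries that overlapped. The log2 fold was 1.08 ± 0.30 (adjusted p = 0.0174, edgeR).

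CDH10, in the mouse a cadherin of particular neurons of brain and retina, had 8.06 CPM with tazemetostat and 1.55 CPM with ipatasertib in MDA-MB-468. In SUM-149PT it had 1.88 CPM with tazemetostat and 1.16 CPM with ipatasertib, and in MDA-MB-231 3.08 CPM with tazemetostat and 1.59 CPM with ipatasertib. In these lines the tazemetostat libraries were above the ipatasertib libraries. In SUM-159PT they overlapped, at 7.89 CPM with tazemetostat and 6.92 CPM with ipatasertib, and the log2 fold over lines was 1.05 ± 0.33 (adjusted p = 0.0268, edgeR).

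CDH9, which in the mouse takes part in hippocampal synapses, was higher with tazemetostat in 4 of 4 lines, without overlap of libraries in MDA-MB-468 and SUM-159PT only. It had 1.61 CPM with tazemetostat and 0.564 CPM with ipatasertib in MDA-MB-468, and 3.48 CPM with tazemetostat and 2.44 CPM with ipatasertib in SUM-159PT. Its log2 fold was 0.66 ± 0.22 (adjusted p = 0.0324, edgeR). The peaks summed for CDH9 lie around the TSS the authors used, not around its RefSeq start, which is under a peak (chr5:27038276-27039051) deposited as 82099 bp away. Around RefSeq starts CDH9 had too few counts to be tested, and 4 members rose.

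The other members did not pass the test. CDH7, known from chick neural crest, had a log2 fold of 0.64 ± 0.33 (adjusted p = 0.14, edgeR), with 3.06 CPM with tazemetostat and 0.728 CPM with ipatasertib in MDA-MB-468 but 9.19 CPM with tazemetostat and 9.74 CPM with ipatasertib in SUM-159PT. CDH8, a cadherin of mouse sensory and hippocampal circuits, had 0.64 ± 0.36 (adjusted p = 0.176, edgeR), with 4.71 CPM with tazemetostat and 1.13 CPM with ipatasertib in MDA-MB-468 and 19.7 CPM with tazemetostat and 24.2 CPM with ipatasertib in SUM-159PT, where the tazemetostat libraries lay below.

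CDH11, the cadherin of osteoblasts and mesenchymal cells, had a log2 fold of 0.38 ± 0.18 (adjusted p = 0.118, edgeR). It was higher with tazemetostat without overlap in MDA-MB-468, SUM-149PT and MDA-MB-231 and lower without overlap in SUM-159PT. SUM-149PT moved most, with 16.03 CPM with tazemetostat and 7.75 CPM with ipatasertib. CDH19, a marker of Schwann cell precursors, had 0.27 ± 0.21 (adjusted p = 0.325, edgeR), and CDH18, a cadherin of the central nervous system, had 0.23 ± 0.17 (adjusted p = 0.275, edgeR). Further RefSeq starts of CDH18 lie under peaks outside its sum, deposited as 586967 and 688989 bp away, with 7434 and 4372 counts in all libraries. Their log2 folds were 0.08 ± 0.30 and -0.20 ± 0.18, and neither passed. The sign of CDH18 and CDH19 turned with offsets that follow mean accessibility, to -0.22 and -0.19.

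The calls of CDH12, CDH6, CDH10 and CDH9 rest on few lines. Without MDA-MB-468, or without SUM-149PT, CDH20 alone passed, and without SUM-159PT 3 members did. With offsets that follow mean accessibility CDH20 was again the member that passed (log2 fold 1.10, adjusted p = 0.0111, edgeR). Summed accessibility of 5 neuronal marker genes had a median over the 4 lines of 93.6 CPM (range 48.3 to 107) with tazemetostat and of 77.4 CPM (range 50.4 to 82.7) with ipatasertib. MDA-MB-231, the lowest line in both groups, went down, from 50.4 to 48.3 CPM. Medians of the endothelial (47.0 against 40.5 CPM) and mesenchymal (164 against 159 CPM) lists were also higher with tazemetostat. Those of the epithelial, immune, and Schwann cell and melanocyte lists were lower. The part of these markers in the results was not tested.

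**Figure D2:**
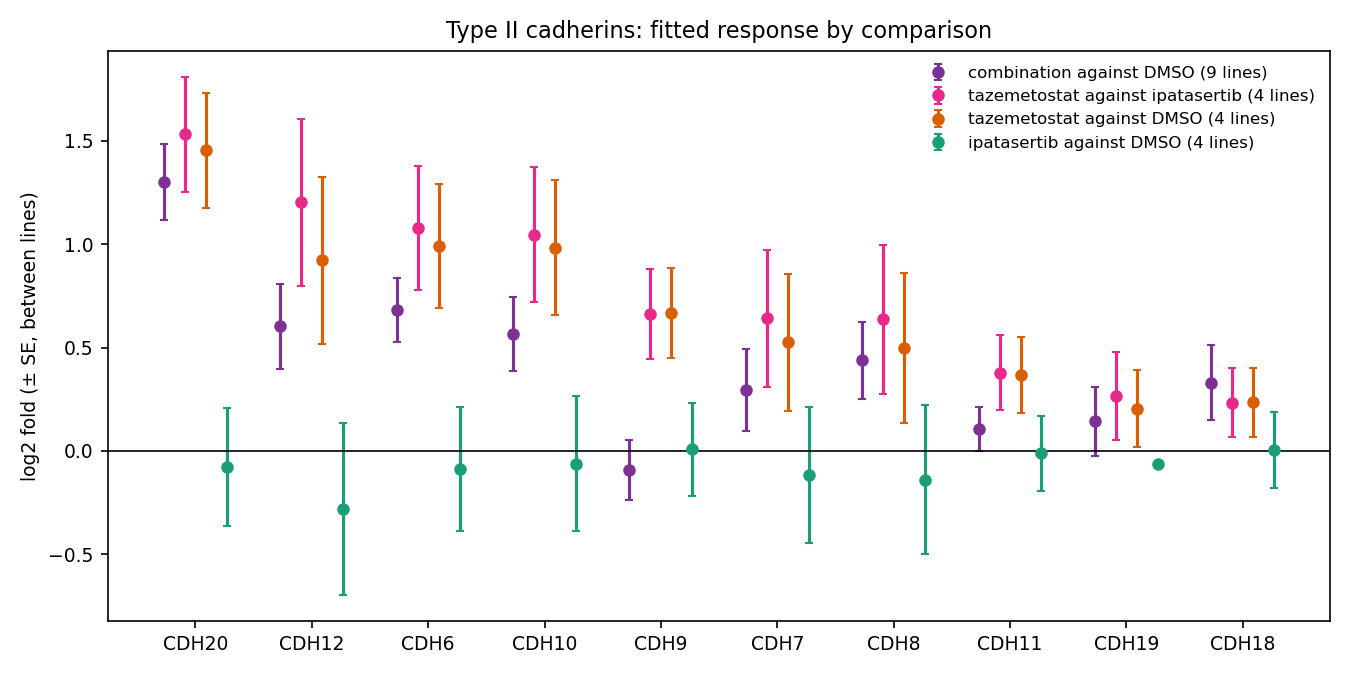
Fitted log2 folds of the 10 genes (points) with SE between lines (bars; none is drawn for CDH19 with ipatasertib against DMSO, where the test gave no usable SE) in 4 comparisons. Genes run in order of tazemetostat against ipatasertib, from CDH20 at 1.53 to CDH18 at 0.23; ipatasertib against DMSO stays between -0.28 and 0.01, and CDH18 and CDH19 change sign between tazemetostat and ipatasertib with offsets that follow mean accessibility.

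Against DMSO, tazemetostat alone gave folds close in size, but these share the DMSO libraries with the comparison that chose CDH20. CDH20 had a log2 fold of 1.45 ± 0.28, given with no test. CDH6 rose by 0.99 ± 0.30 (adjusted p = 0.0312, edgeR), CDH10 by 0.98 ± 0.33 (adjusted p = 0.0421, edgeR) and CDH9 by 0.67 ± 0.22 (adjusted p = 0.039, edgeR). CDH12 had 0.92 ± 0.40 (adjusted p = 0.103, edgeR), with 3 of 4 lines higher and MDA-MB-231 lower. Of the 9 members other than CDH20, 3 passed upward and none downward, where 9.72% of all genes rose and 18.3% fell (34.7% of calls higher; 18.5% and a median of -0.12 with total counts). CDH7, CDH8, CDH11, CDH18 and CDH19 had 0.52, 0.50, 0.37, 0.24 and 0.20 and did not pass. Offsets that follow mean accessibility turned CDH18 and CDH19 to -0.13 each.

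With ipatasertib alone no member passed the test against DMSO. The members' log2 folds against DMSO lay between -0.28, at CDH12, and 0.01, at CDH9, and 0 of the 9 other than CDH20 passed, as 0 of 23905 genes did in edgeR and in DESeq2 (0.0% called). At an unadjusted p under 0.05, 301 genes were higher and 187 lower, and no member was among them. CDH20 had -0.08 ± 0.29, with line ratios from -0.38 in SUM-149PT to 0.46 in MDA-MB-468 on the log2 scale. In MDA-MB-468 its ipatasertib libraries lay above the DMSO libraries, and in the other lines they overlapped; over all genes, 11.2% of gene and line pairs lay above without overlap.

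Adding ipatasertib to tazemetostat did not move any member past the threshold. CDH20 had a log2 fold of 0.02 ± 0.26 for the combination against tazemetostat, and between -0.12 and 0.20 in single lines, with overlapping libraries in all 4. CDH9 had the lowest value, -0.41 ± 0.21, followed by CDH10 at -0.27 ± 0.31. In edgeR 0 members and 0 of 23905 genes passed (0.0% called), with 513 genes higher and 379 lower at an unadjusted p under 0.05 and no member among them; DESeq2 called 2 genes and no member. The departure from additive effects on the log2 scale was 0.09 for CDH20, and here too 0 genes passed in edgeR and in DESeq2 (20 above and 31 below at an unadjusted p under 0.05). Within MDA-MB-468 alone, where the error covers only the spread between libraries, CDH8, CDH9, CDH10 and CDH12 were lower with the combination than with tazemetostat, by -0.45, -0.71, -0.39 and -0.31 (edgeR adjusted p from 0.00424 to 0.0488), where 5.99% of genes fell and 4.96% rose. These 4 calls became 0 to 2 when a replicate was left out. Within SUM-159PT, CDH8 went the other way, with a log2 fold of 0.22 (edgeR adjusted p = 0.0459), where 1.49% of genes rose and 1.8% fell, and this call was lost with any replicate left out. MDA-MB-231 and SUM-149PT had 0 calls among members.

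Over 9 lines, the combination against DMSO gave CDH20 a log2 fold of 1.30 ± 0.18, the value that chose the family. The line ratios were 2.73 in MDA-MB-468 and from 0.84 in SUM-149PT to 1.53 in HCC1395 in the other lines on the log2 scale, with a median of 1.07. Without MDA-MB-468 the fitted fold was 1.12. CDH6 had 0.68 ± 0.15, CDH12 0.60 ± 0.21 and CDH10 0.56 ± 0.18, and of the 9 members other than CDH20 these 3 were past the threshold, with none lower, where 10.8% of 23435 genes rose and 16.8% fell (39.2% of calls higher; 28.3% with total counts). CDH8, CDH18, CDH7, CDH19 and CDH11 had 0.44, 0.33, 0.29, 0.14 and 0.11. CDH9 had -0.09 and was the member whose sign turned, to 0.26 around RefSeq starts, to 0.06 over every annotated peak, and to 0.0019 without HCC1395.

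CDH6 was the other member higher without overlap of libraries in 9 of 9 lines, from 23.6 CPM with the combination and 20.2 CPM in DMSO in BT-549 to 8.93 CPM with the combination and 2.45 CPM in DMSO in MDA-MB-468. Over all genes and the 9 lines, 22.9% of gene and line pairs had their combination libraries above the DMSO libraries without overlap. CDH10 did so in 6 lines, CDH8, CDH11 and CDH18 in 5 each, CDH7 and CDH12 in 4 each, and CDH9 and CDH19 in 0. Below the DMSO libraries without overlap, as 23.1% of pairs were, lay CDH9 in HCC1395 and HCC1937, CDH7 in SUM-159PT, CDH10 in HCC1143 and CDH11 in BT-549. HCC1395 had the highest ratio of all lines for CDH18, with 3.54 CPM with the combination and 1.03 CPM in DMSO. There, CDH8 had 6.38 CPM with the combination and 2.50 CPM in DMSO, and CDH9 was lower, at 3.52 CPM with the combination and 5.49 CPM in DMSO. The third DMSO library of HCC1395 stands apart from the others of its group, and without it CDH6 and CDH10 were past the threshold in the 9-line fit and CDH12 was not (adjusted p = 0.0504, edgeR).

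**Figure D3:**
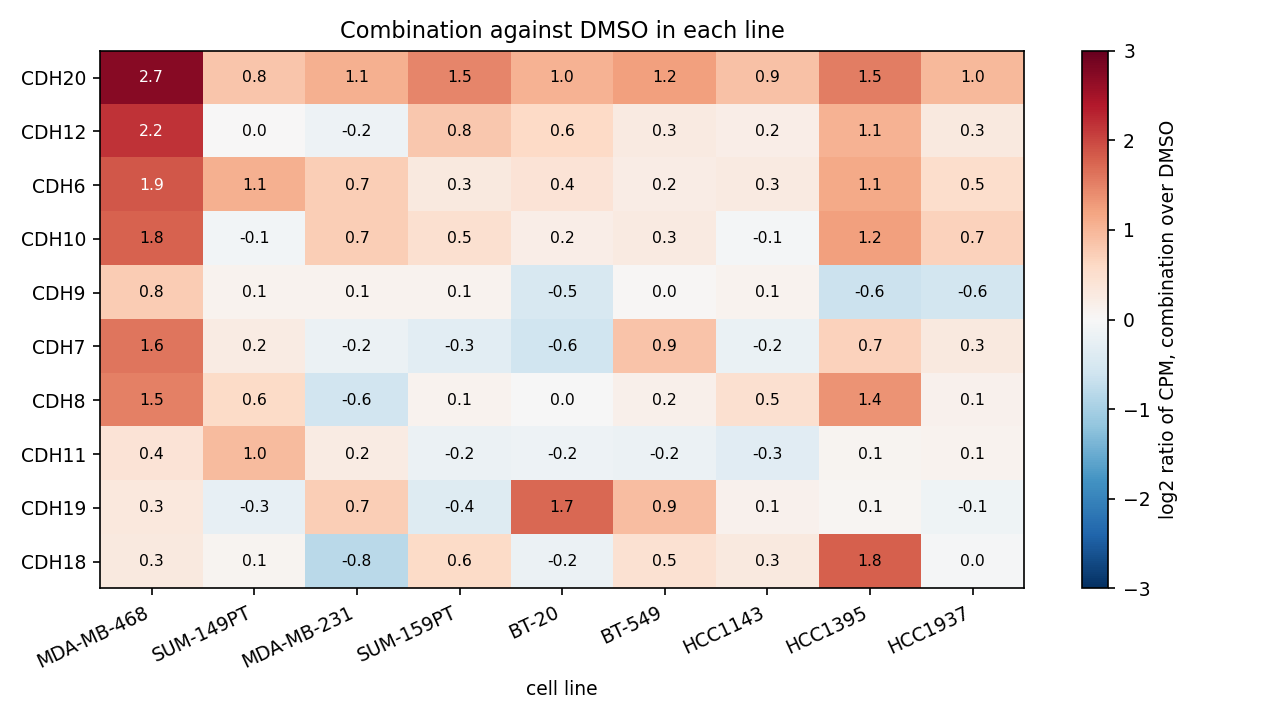
Log2 ratio of CPM, combination over DMSO, for each gene (rows, in order of tazemetostat against ipatasertib) in each of 9 lines (columns), from counts summed over the 3 libraries of a group. CDH20 and CDH6 are above 0 in every line. MDA-MB-468 has the highest ratio of all lines for CDH20 (2.7) and CDH12 (2.2), and also for CDH6, CDH7, CDH8, CDH9 and CDH10.

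How far a member responded differed between lines. An interaction of line and treatment was tested on single libraries (edgeR F test, adjusted over all genes), with an error that covers only the spread between libraries of a line. By it, 9 of 10 members differed between lines for tazemetostat against ipatasertib, where 58.6% of all genes did. CDH20 was among them (adjusted p = 0.000155, edgeR), and CDH19 was the exception (adjusted p = 0.0581, edgeR). For the combination against DMSO 8 of the 9 members other than CDH20 differed, where 73.4% of all genes did, and CDH19 again did not pass (adjusted p = 0.0747, edgeR). Within single lines, all 10 members rose with tazemetostat against ipatasertib in MDA-MB-468, where 30.9% of genes rose and 26.9% fell. In SUM-149PT it was 7 of 10, where 21.3% of genes rose and 16.8% fell, and in MDA-MB-231 4 of the 6 members that passed the filter on low counts, where 15.0% rose and 8.69% fell. In SUM-159PT 5 rose and CDH8 fell, where 29.9% of genes rose and 23.4% fell. In MDA-MB-468, CDH6, CDH10, CDH12 and CDH20 had near equal ratios of 5.12, 5.21, 5.35 and 5.25.

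In DMSO the family was unevenly open across the lines, and CDH20 had the lowest median of its members. CDH20 was chosen by a ratio over these DMSO libraries, which favours a low DMSO level, so its rank is only a description. Levels are given as CPM per kb of peak, for a rough comparison of genes. The widths are those of the deposited peaks in all groups, so sites open mainly with treatment also add width in DMSO. CDH20 had a median over 9 lines of 0.273, from 0.158 in HCC1937 to 0.641 in SUM-159PT. It was the least open member in 5 of 9 lines; in the others this was CDH19 (BT-20 and BT-549), CDH7 (MDA-MB-231) or CDH12 (SUM-149PT). CDH12 had a median of 0.452 and CDH10 of 0.547. CDH11 had the highest median, 4.15, followed by CDH18 with 2.68. CDH20 also varied least, by a ratio of 4.05 between its highest and lowest line. In its order of lines, SUM-159PT, SUM-149PT, BT-549, MDA-MB-231, BT-20, MDA-MB-468, HCC1143, HCC1395 and HCC1937, the libraries of neighbours overlapped in 7 of 8 pairs, all but BT-549 and MDA-MB-231.

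Other members were open in a few lines each. CDH19 had 10.04 CPM in DMSO in HCC1395, 3.53 CPM in SUM-149PT and 0.083 CPM in BT-20, where it rests on 4 counts. CDH10 had 28.6 CPM in HCC1143 and at most 6.14 CPM in the other lines, and CDH8 had 21.3 CPM in SUM-159PT and at most 8.99 CPM elsewhere. CDH6 was highest in HCC1143, SUM-159PT and BT-549, at 27.1, 23.3 and 20.2 CPM. CDH11 was highest in HCC1395, BT-549 and HCC1937, at 62.3, 55.7 and 39.4 CPM, and lowest in HCC1143, at 4.87 CPM. MDA-MB-231 was the lowest line for CDH7, CDH8, CDH9, CDH10, CDH12 and CDH18. Gene copy number in the lines was not measured here, and its part in these levels was not tested.

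**Figure D4:**
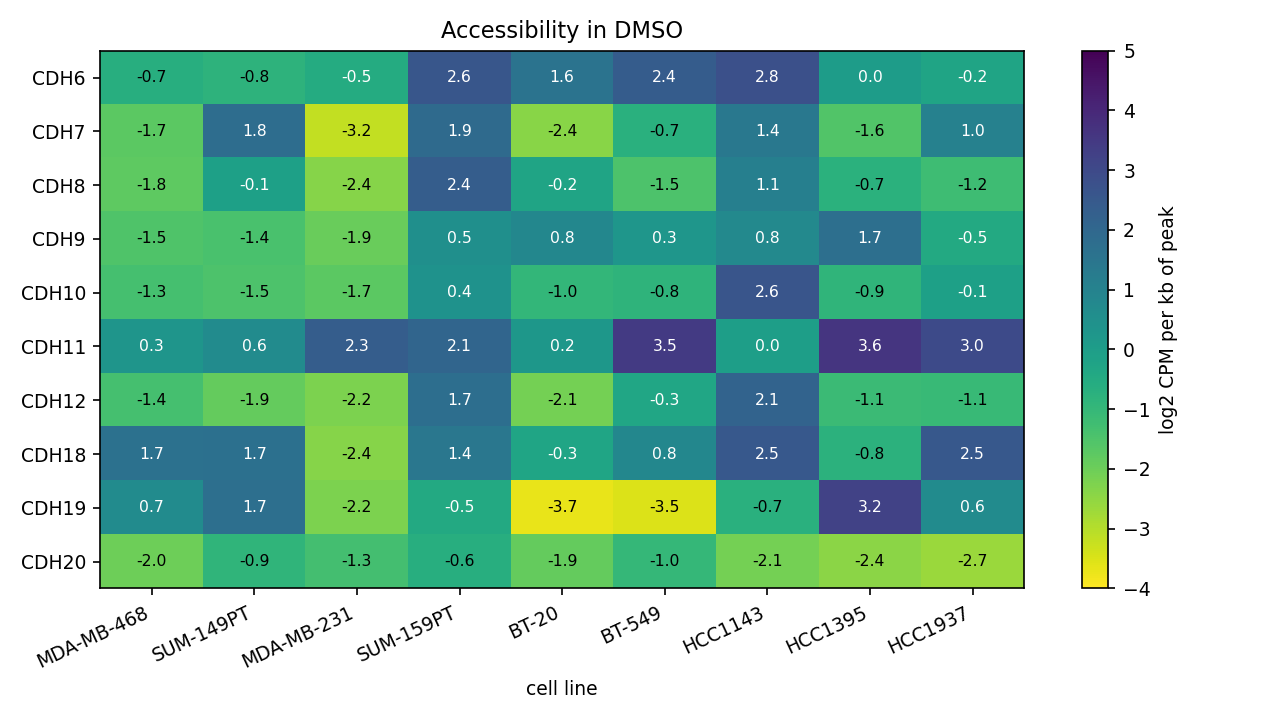
Accessibility in DMSO, as log2 of CPM per kb of peak within 10 kb of the TSS, for each gene (rows) in each line (columns), from 3 summed libraries. CDH11 is the darkest row, most open, with 62.3 CPM in HCC1395, and CDH20 is below 1 CPM per kb in all 9 lines.

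Single peaks that rose at CDH20 lay mostly downstream of its TSS, in the gene, as did most of its tested peaks. Of 92 peaks assigned to CDH20, 59 could be tested for tazemetostat against ipatasertib; 8 rose and none fell, where 3.6% of the 565986 peaks tested rose and 5.26% fell. Of all 2010 peaks of the family, 934 were tested, 20 rose and 3 fell; within 10 kb of a TSS 42 were tested and 2 rose. The wider CDH20 promoter peak (chr18:61334944-61336697) had 2.71 CPM with tazemetostat and 0.854 CPM with ipatasertib over the 4 lines, and 2.88 CPM with the combination and 0.909 CPM in DMSO. It rose with tazemetostat against ipatasertib by 1.30 ± 0.26 (adjusted p = 0.00529, edgeR over all peaks). Peak fits were scaled on peaks but CPM values on gene sums. The fitted fold of a peak can therefore lie below the ratio of its CPM values. The peak nearest the TSS (chr18:61333664-61334719) had 0.992 CPM with tazemetostat and 0.361 CPM with ipatasertib and did not pass (1.07 ± 0.33, adjusted p = 0.0512, edgeR).

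Within intron 1, the peak at chr18:61359673-61359993 rose by 2.05 ± 0.36 (adjusted p = 0.00419, edgeR) and the one at chr18:61471921-61472159 by 2.28 ± 0.45 (adjusted p = 0.00522, edgeR). They are small, with 245 and 169 counts in all 78 libraries. Another 3 of the 8 lie in intron 1 as well and 1 in intron 5, with log2 folds from 1.30 to 1.91. Upstream, 1 peak passed, at chr18:61251001-61251262 (1.67 ± 0.43, adjusted p = 0.0219, edgeR). The third peak within the 10 kb limit lies upstream, at -6043 bp, with 80 counts, too few to test. Just outside the limit, at -10433 bp, lies a peak with 2697 counts, more than the 1864 of the wider promoter peak, at 3.09 CPM with tazemetostat and 2.37 CPM with ipatasertib. Its fitted log2 fold, on the scaling of the peak fits, was 0.04 ± 0.16, below the ratio of these CPM values. With a window of 50 kb the log2 fold of CDH20 was 1.04, and over every peak assigned to it 0.71; it passed in each case.

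**Figure D5:**
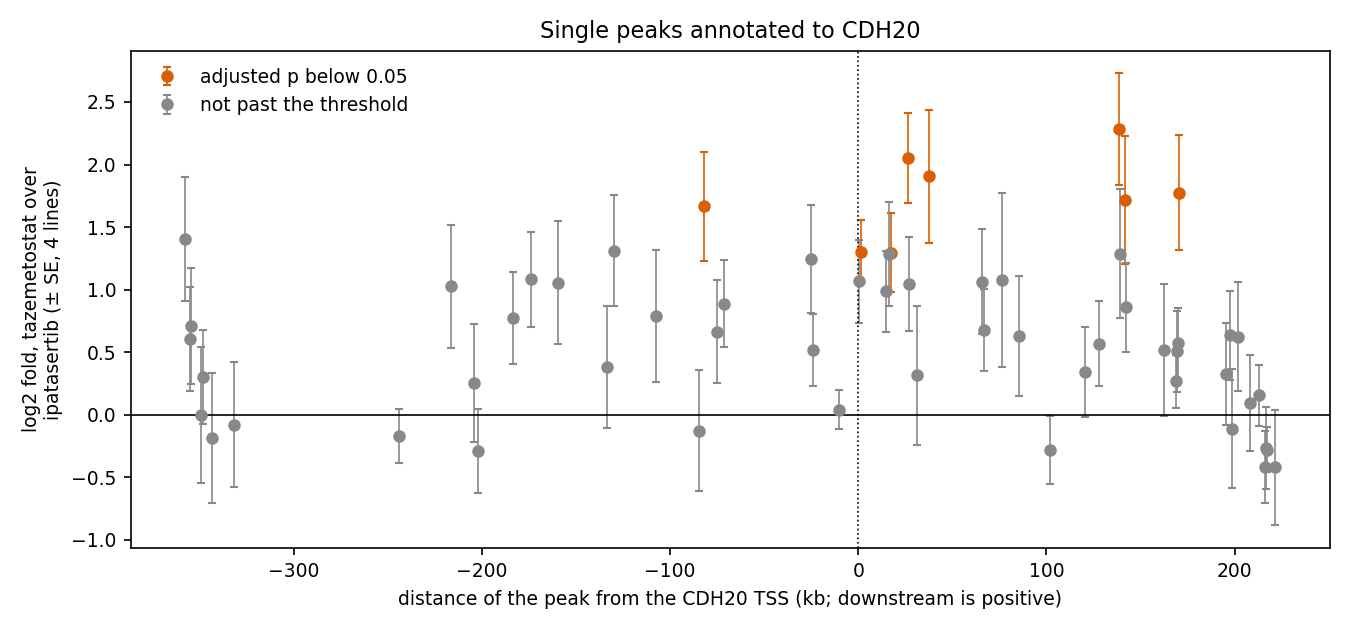
Log2 fold (points) with SE between lines (bars) of each tested peak assigned to CDH20, tazemetostat over ipatasertib in 4 lines, against its distance from the TSS in kb (linear axes). The 8 peaks past the threshold lie from 82 kb upstream to 171 kb downstream, with log2 folds from 1.30 to 2.28.

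Among the other members, CDH12 had 6 peaks that rose and 2 that fell of 154 tested, where 3.6% of all peaks rose and 5.26% fell. The other peak within 10 kb of a TSS that rose is CDH12's, at -4378 bp from the TSS (chr5:22857110-22857722, 1.96 ± 0.51, adjusted p = 0.0237, edgeR). It is deposited as distal intergenic. The peak over CDH12's TSS (chr5:22852765-22853908) did not pass (0.505 ± 0.309, adjusted p = 0.324, edgeR). Of the CDH12 peaks that rose, the one with the largest fold lies at -189428 bp from the TSS (chr5:23042265-23042772), with 0.709 CPM with tazemetostat and 0.112 CPM with ipatasertib (2.14 ± 0.42, adjusted p = 0.00517, edgeR). CDH11 had 1 such peak, 233640 bp downstream of the TSS used by the authors (chr16:64892472-64893936), with 3.84 CPM with tazemetostat and 1.17 CPM with ipatasertib (1.14 ± 0.31, adjusted p = 0.0265, edgeR). The peak over CDH11's RefSeq start (chr16:65120843-65123840), with 12.5 CPM with tazemetostat and 10.5 CPM with ipatasertib, did not pass (0.15 ± 0.27, adjusted p = 0.771, edgeR). A CDH18 peak (chr5:20275809-20277377) fell by 0.54 ± 0.13 on the log2 scale of the peak fit (adjusted p = 0.0152, edgeR). It had 9.28 CPM with tazemetostat and 10.9 CPM with ipatasertib, a smaller fall. The peak was not tested on the scaling of the CPM values. Of the family's peaks, 23 passed in either direction; without SUM-159PT 1 passed, without MDA-MB-468 3 and without SUM-149PT 12. Peaks of CDH20 are left out of the counts in the other comparisons. In edgeR 0 of the remaining 875 peaks passed for ipatasertib against DMSO or for the combination against tazemetostat, as 0 of all peaks did (0.0% called). At an unadjusted p under 0.05, 3 of these 875 were higher and 10 lower for ipatasertib against DMSO, and 3 higher and 15 lower for the combination against tazemetostat. For tazemetostat against DMSO 7 of these 875 rose and none fell, where 2.14% of all peaks rose and 2.24% fell. For the combination against DMSO 12 of 498 tested were higher and 5 lower, where 3.53% of all peaks rose and 2.72% fell.

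Other genes of cadherin adhesion mostly did not pass for tazemetostat against ipatasertib, where 13.4% of all genes rose and 24.2% fell. Of the other type II cadherins, CDH22 rose (0.78 ± 0.15, adjusted p = 0.00449, edgeR) and CDH5 and CDH24 did not pass. Of the type I cadherins, the class of E- and N-cadherin, 0 of 4 tested passed in edgeR, with 1 higher at an unadjusted p under 0.05, CDH15 (0.14 ± 0.06, adjusted p = 0.0802, edgeR). Of 5 atypical and other cadherins 1 rose, CDH23 (0.86 ± 0.31, adjusted p = 0.0476, edgeR), known from the tip links of hair cells. Of 8 catenin genes tested 1 fell, ARVCF (-0.23 ± 0.05, adjusted p = 0.00913, edgeR). Of 9 delta protocadherins tested 1 rose, PCDH19 (1.06 ± 0.25, adjusted p = 0.00874, edgeR). All 9 had a positive fold, with a median of 0.45. The median of the 4 type I cadherins was 0.04 and that of the catenins -0.07. For the combination against DMSO, 3 of 8 delta protocadherins tested rose and 0 fell, where 10.8% of all genes rose and 16.8% fell.

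Of the 7 protein-coding neighbours that could be tested, 2 rose and 1 fell, where 13.4% of all genes rose and 24.2% fell. MC4R, left of CDH20, rose by 1.64 ± 0.35 (adjusted p = 0.00562, edgeR) and H3Y1, left of CDH18, by 1.29 ± 0.30 (adjusted p = 0.00803, edgeR). DROSHA, which starts the processing of microRNAs and lies 71348 bp from CDH6, fell by 0.20 ± 0.05 on the log2 scale (adjusted p = 0.00817, edgeR).

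By correlation of log2 CPM over the 26 groups, each centred on its line, the genes most like CDH20 among 16170 were PGR, the progesterone receptor gene (Pearson r = 0.98), LINC02052 (0.97), CFAP77 (0.97), GRM8, a glutamate receptor gene (0.96), and NHSL2 (0.96). Among members, CDH6 came closest with 0.90, followed by CDH10 with 0.88 and CDH12 with 0.85, and CDH11 was least like it with 0.45. The groups share lines and libraries with the comparison that chose CDH20, so these values describe the likeness of patterns and carry no test.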

How the data were processed

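ATAC-seq libraries were made with the Omni-ATAC protocol from 50000 cells, per the labels' protocols. MACS2, featureCounts and the hg38 build are named in the submitters' processing notes; versions, the aligner and peak-calling details are not stated in any source used. The authors deposited 1 table of raw read counts for 861439 peaks in 78 libraries, with the nearest gene and the distance to its TSS. Of the 84 labelled samples, 6 are not analysed here. The 61 peaks without a gene symbol stayed in library totals at peak level and out of the gene sums.

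Counts were summed per gene over peaks within 10 kb of the TSS, and over the 3 libraries of each line and treatment, because those libraries varied no more than sampling allows (variance relative to binomial sampling 0.850 in the median of 78 pairs, range 0.800 to 1.66) and counted as 1 sample. The third DMSO library of HCC1395 is in both pairs above 1. Genes with enough counts (filterByExpr, minimum count 10) were tested with edgeR 4.0.16 (R 4.3.3, TMM scaling, robust quasi-likelihood F test, line as block, Benjamini-Hochberg over all genes, threshold 0.05). A fit of 9 lines (18 sums) gave the combination against DMSO, and a fit of 4 lines (16 sums) the other comparisons. Peaks were tested the same way, with TMM scaling computed on the peaks. CPM values of genes and peaks use library sizes with TMM scaling computed on the gene sums. The SE was derived from the fold and its p. Tests within a line used its single libraries. P-values over lines measure the spread between lines, and those within a line only the spread between libraries, which may be technical.

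In simulated data at these library sizes, 200 genes were changed by a log2 fold of 1 or 0.5 in either direction. For the combination against DMSO over 23435 genes, 100% (log2 fold 1) and 79% (0.5) were recovered. For tazemetostat against ipatasertib over 23905 genes it was 97% and 46%. The simulation gave all genes a common spread and every line the same fold. The SE of CDH12 in the latter comparison was 0.40, and members differed between lines, so these rates may not hold for the members. Alternatives were other scalings, DESeq2 1.42.0, filters, windows, left-out lines or replicates, and single libraries; RefSeq starts and peak fits without the third DMSO library of HCC1395 were added after seeing the data. All members were named; from the other lists, up to 4 genes past the threshold or, where none passed, the one with the largest fold. The members and lists were chosen with earlier results of these data known. Counting intervals cover counting error only.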

Additional observations from a re-analysis of the deposited data

Results flagged for a closer look

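CDH20 stood apart in MDA-MB-468. Its log2 ratio of the combination over DMSO was 2.73 there, far above the other 8 lines, and its log2 ratio of tazemetostat over ipatasertib was 2.39, far above the other 3 lines. For the combination, MDA-MB-468 was also the highest line for CDH12 (2.16), CDH6 (1.87), CDH10 (1.77), CDH7 (1.61), CDH8 (1.51) and CDH9 (0.76), which were not flagged. CDH11, CDH18 and CDH19 were highest in other lines. For tazemetostat over ipatasertib, CDH12 (2.42), CDH10 (2.38) and CDH6 (2.36) had ratios near that of CDH20 there. In DMSO, CDH8 stood apart in SUM-159PT with 21.3 CPM, CDH10 in HCC1143 with 28.6 CPM and CDH19 in HCC1395 with 10.04 CPM. The 5 flags came from 30 groups of values looked at, and chance alone can flag some groups. How many was not estimated, because CPM levels spread unevenly over the lines. The combination ratio of CDH20 also belongs to the comparison that chose the family.

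The response differed between lines for 9 of 10 members for tazemetostat against ipatasertib, and for 8 of the 9 other than CDH20 for the combination against DMSO, in the test of line by treatment interaction (edgeR F test on single libraries, adjusted over all genes), where 58.6% of all genes differed for tazemetostat against ipatasertib and 73.4% for the combination against DMSO. For the combination against DMSO the adjusted p was 4.761e-23 for CDH10, 9.308e-12 for CDH11, 4.767e-16 for CDH12, and 1.228e-11 for CDH18. It was 1.176e-26 for CDH6, 3.004e-13 for CDH7, 3.035e-15 for CDH8 and 0.0004905 for CDH9. For tazemetostat against ipatasertib it was 2.178e-20 for CDH10, 1.236e-21 for CDH11, 9.672e-15 for CDH12, 0.001711 for CDH18 and 0.0001549 for CDH20. It was 2.359e-31 for CDH6, 8.03e-14 for CDH7, 1.824e-24 for CDH8 and 0.01882 for CDH9. These tests cover the spread between libraries of a line only.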

How the results depend on the processing

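CDH20 kept its direction for tazemetostat against ipatasertib under all 20 alternatives, with log2 folds from 0.71 to 1.68, and lost its call in 1 of them, the groups compared alone (1.52, adjusted p = 0.0899, edgeR). The number of members called in that comparison (5) was 1 with offsets that follow mean accessibility, 1 over every annotated peak, 0 for the groups alone, 1 without MDA-MB-468, 1 without SUM-149PT, 3 without SUM-159PT, and 9 on single libraries with no replicate block. Counts for the other comparisons include CDH20, which carries no test there. For tazemetostat against DMSO (4) it was 1 with the trended offsets, 2 at 50 kb, 1 over every peak, 0 for the groups alone, 1 without each of MDA-MB-468, SUM-149PT and SUM-159PT, 2 to 3 with a replicate left out, and 9 on single libraries. For the combination against DMSO (4) it was 2 with the trended offsets, 2 at 50 kb, 1 over every peak, 2 without each of BT-549, HCC1395, HCC1937 and SUM-159PT, and 7 on single libraries. With the replicate number as a block, single libraries gave 9, 9 and 6 called members in these comparisons; the numbers do not pair the samples, as 87 correlations of deviations between same-numbered libraries ran from -0.183 to 0.140 (median 0.0087) with 1 over 0.1. CDH20's fold for the combination against DMSO was 0.68 at 50 kb and 0.42 over every peak; at 1 kb its combination against tazemetostat was -0.39 and its non-additivity -0.44. Signs turned for CDH9, combination against DMSO, over every peak (0.060), without HCC1395 (0.0019) and around RefSeq starts (0.26), and with the trended offsets for CDH18 and CDH19 (tazemetostat against DMSO -0.13 and -0.13, against ipatasertib -0.22 and -0.19). Members called within a line, with a replicate left out, ranged from 2 to 5 in HCC1143 and 1 to 3 in HCC1937 (combination against DMSO), 3 to 6 in SUM-159PT (tazemetostat against ipatasertib), and 0 to 2 in MDA-MB-468 and 0 in SUM-159PT (combination against tazemetostat). Called peaks at any distance and within 10 kb, for the combination against DMSO (20 and 5), were 8 and 2 at a minimum count of 30, 11 to 17 and 3 to 5 with a replicate left out, 9 without BT-20, 8 and 3 without HCC1395, 6 and 3 without HCC1937 and 12 without MDA-MB-231. For tazemetostat against DMSO (13 and 2) they were 0 and 0 without MDA-MB-468, 7 and 1 without SUM-149PT, 3 and 0 without MDA-MB-231, 0 and 0 without SUM-159PT, and 8 to 15 and 1 to 2 with a replicate left out. For tazemetostat against ipatasertib (23 and 2) they were 41 and 6 with total counts, 12 and 4 at a minimum count of 30, 3 and 1 without MDA-MB-468, 12 without SUM-149PT, 1 and 1 without SUM-159PT, and 17 to 18 and 3 to 4 with a replicate left out. The cause of these changes was not tested. The groups-alone fit has fewer sums, and could not be made for 9 lines or for non-additivity. Low counts limit CDH20 in HCC1937, HCC1395 and HCC1143.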
